A study of Homo sapiens with 4 samples.

Results

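The mitochondrial genome encodes 13 proteins of the respiratory chain and ATP synthase, and the 6 mRNAs examined here are those of complexes III, IV and V: MT-CYB, MT-CO1, MT-CO2, MT-CO3, MT-ATP6 and MT-ATP8. They were taken by gene symbol, with no threshold on a measured value. Each has 1 transcript in the GRCh38 annotation, all 6 transcripts were found in the deposited tables, and they are 6 of 227368 listed transcripts. The remaining 7 mRNAs of the same genome encode subunits of complex I and serve as the nearest comparison.

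RNA was sequenced from the lung cancer line H1299 (human, non-small-cell carcinoma) from a control group exposed to the solvent (0.6% EtOH) and from a group exposed to 5 μM HgCl2, both for 48 h. The amount of EtOH in the HgCl2 cultures is not given in the study's methods. The treatment text of the labels gives 5 μM HgCl2 for every sample, whereas the sample titles and the study's methods set EtOH apart as the control, and this reading is used. No group carries a transgene or a deletion made for the study, and all cells come from 1 line. The tables give 2 columns per group, numbered as replicates 1 and 2.

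Cytochrome b, encoded by MT-CYB, is the subunit of complex III (the cytochrome bc1 complex) through which electrons pass from ubiquinol towards cytochrome c. MT-CO1, MT-CO2 and MT-CO3 encode the catalytic core of complex IV, cytochrome c oxidase, which reduces oxygen. MT-ATP6 and MT-ATP8 encode membrane subunits of ATP synthase. All 6 genes lie on the same strand and are cut out of long precursor RNAs mostly at the tRNAs between them, and MT-ATP8 and MT-ATP6 stay together on 1 RNA. Inorganic mercury binds thiol groups of proteins.

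Column totals lay between 4720978 and 5053120 counts. Transcripts with a count numbered 33148 and 33106 in the EtOH columns, and fewer, 25432 and 25531, in the HgCl2 columns. What part this difference has in the shares and medians of all tested transcripts given below was not tested. The columns of a group differed by less than sampling noise: the variance of their difference was 0.505 times (95% interval 0.492 to 0.517) that of counting noise for EtOH and 0.516 times (0.503 to 0.530) for HgCl2, over 12382 and 10611 transcripts with at least 20 counts in the pair. Each group was therefore counted as 1 sample with the mean of its columns as its value, so no comparison of HgCl2 with EtOH has a replicate check and no p-value is given. Of the markers of the line, KRT8 had 53 and 58 counts in EtOH and 4 in each HgCl2 column, KRT18 had 18 to 31 and VIM 501 to 628, while the epithelial EPCAM, CDH1 and KRT19 and the leukocyte gene PTPRC were at 0 in all columns. GAPDH and ACTB had at most 3 counts, so a 0 in these tables does not mean that a gene is silent. Ranks among transcripts and shares of all counts are likewise those of these tables, not of the RNA in the cells.

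Of the 6 genes, MT-ATP8 is shown in full because its values went another way than those of the rest and because its end lies inside MT-ATP6. The sequences below are from GRCh38, on the plus strand of the mitochondrial genome. In the first, chrM:8366-8572, the 46 bases that also belong to MT-ATP6 are in capitals, and in the second, chrM:8527-8572, the capitals mark the start codon of MT-ATP6 and the stop codon of MT-ATP8.

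MT-ATP8: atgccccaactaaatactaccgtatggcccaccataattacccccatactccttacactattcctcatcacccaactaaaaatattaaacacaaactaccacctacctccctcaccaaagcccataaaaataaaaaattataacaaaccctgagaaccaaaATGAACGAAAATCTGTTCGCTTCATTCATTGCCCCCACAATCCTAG

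MT-ATP8/MT-ATP6 overlap: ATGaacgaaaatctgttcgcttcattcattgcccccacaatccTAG

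The last 24 bases of each coding region are shown next because the libraries were made from poly-A RNA and some of these mRNAs get their full stop codon only with the tail. Capitals mark the stop codon or the part of it that the genome encodes. It is 3 bases in MT-CO1 (chrM:7422-7445), MT-CO2 (chrM:8246-8269), MT-ATP8 (chrM:8549-8572) and MT-ATP6 (chrM:9184-9207), and 1 base in MT-CO3 (chrM:9967-9990) and MT-CYB (chrM:15864-15887).

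MT-CO1 end: gaacccgtatacataaaatctAGA

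MT-CO2 end: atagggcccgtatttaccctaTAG

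MT-ATP8 end: cattcattgcccccacaatccTAG

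MT-ATP6 end: ctctacctgcacgacaacacaTAA

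MT-CO3 end: tctccatctattgatgagggtctT

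MT-CYB end: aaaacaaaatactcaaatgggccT

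MT-CO1 (chrM:5904-7445), MT-CO2 (chrM:7586-8269) and MT-CYB (chrM:14747-15887) share no base with another annotated gene. MT-ATP8 has 161 of its 207 bases to itself, MT-ATP6 (chrM:8527-9207) 634 of 681, and MT-CO3 (chrM:9207-9990) 783 of 784. The 2 mRNAs with an encoded stop of 1 base did not stand together in the comparisons that follow: MT-CO3 had values near those of MT-CO1, and MT-CYB was the lowest of the set.

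Levels were compared between genes per length. In counts per kb of transcript, MT-CO1 was the highest in every column, with 244361 and 244413 in EtOH and 154906 and 154811 in HgCl2. In EtOH it was followed by MT-CO2 (125820 and 125713), MT-ATP6 (105684 and 105722), MT-ATP8 (80507 and 80643), MT-CO3 (70186 and 70218) and MT-CYB (28311 and 28446). The neighbours in this order were further apart than the columns of the group.

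In HgCl2 the order was another one. MT-ATP8 (93787 and 94362 counts per kb) came second and MT-ATP6 (82257 and 81777) next, above MT-CO2 (68689 and 69487), while MT-CO3 (45700 and 45413) and MT-CYB (12182 and 12150) kept the last places. The same counts were also divided by the bases that belong to 1 gene alone in place of the whole length. The level of MT-ATP8 was then 103509 and 103683 in EtOH and 120584 and 121323 in HgCl2. The order of the 6 genes was unchanged in both groups. The deposited FPKM values, which are also per length, placed MT-CO1 first of all 227368 transcripts in every column, and moved MT-ATP8 from rank 8 to rank 3, MT-CO2 from rank 3 to rank 8 and MT-CYB from rank 18 to rank 27 between EtOH and HgCl2.

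**Figure D1:**
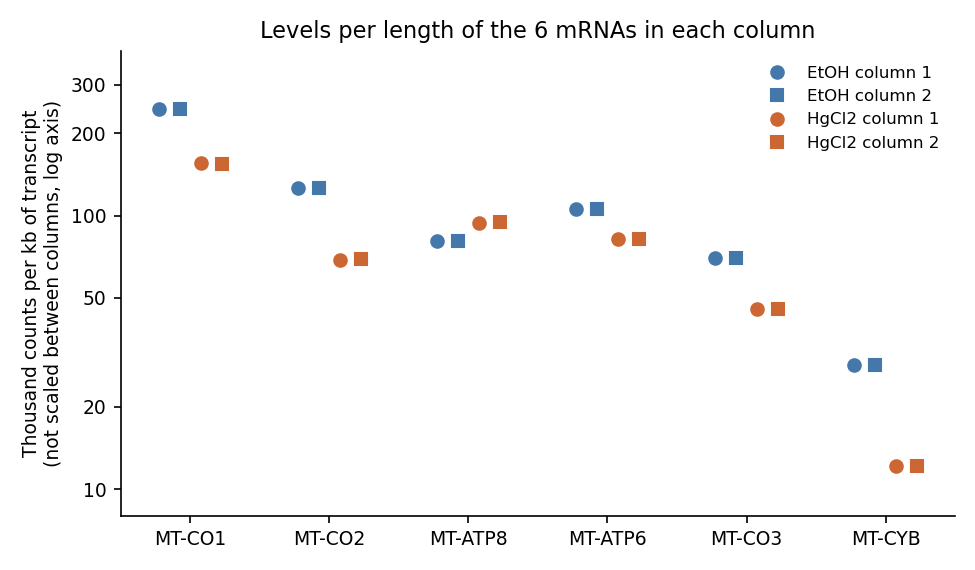
Levels of the 6 mRNAs in counts per kb of transcript, in units of 1000 on a log axis and not scaled between columns, with circles for column 1 and squares for column 2 of EtOH (blue) and HgCl2 (orange). The columns of a group lie on top of each other, and MT-ATP8 is the only one of the 6 with the HgCl2 columns (93787 and 94362 counts per kb) above the EtOH columns (80507 and 80643).

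The comparison of HgCl2 with EtOH asks how exposure to inorganic mercury relates to these mRNAs. Their summed counts were 638830 and 639071 in EtOH, or 12.6% of all counts in each column (95% Wilson interval 12.6% to 12.7%), and 411008 and 410938 in HgCl2, or 8.70% of all counts in each (8.68% to 8.73%). The TMM scale of edgeR sets the columns to a common level by a trimmed mean over transcripts. On it, the sum in HgCl2 was 71.0% of that in EtOH, a log2 fold change of -0.49 (95% Clopper-Pearson interval -0.50 to -0.49). On this scale the median of all tested transcripts lay below 0 and that of the well-counted ones above 0, as given below. All intervals cover counting error only. A lower share of these reads cannot be told apart from more RNA of other genes, nor fewer mitochondria from less RNA in each.

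Of the 6 mRNAs, 5 had lower and 1 had higher values in HgCl2, where 55.7% of all tested transcripts and 33.2% of those with a mean of 200 counts or more were lower. The median log2 fold change of the 6 was -0.50, beside -0.21 over all 17547 transcripts tested (those with a mean FPKM above 1 in a group) and 0.21 over the 2712 of them with a mean of at least 200 counts, which are closer to these mRNAs in precision. MT-CYB alone was at least 2-fold lower, against 34.1% of all tested transcripts and 2.03% of those with at least 200 counts, and none of the 6 was 2-fold higher, against 19.2% and 4.65%. A log2 fold change of -0.5 or lower was found in 3 of the 6, against 43.7% and 9.73%. Against all tested transcripts these shares are no result about the 6 genes, and against the well-counted transcripts they are a count of 1 and of 3.

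In complex III, MT-CYB had 32303 and 32457 counts in EtOH and 13900 and 13863 in HgCl2. As for each of the 6 genes on the TMM scale, the columns of the groups did not overlap, which also holds for 89.4% of all tested transcripts and 92.4% of those with at least 200 counts and so sets none of the 6 apart. HgCl2 held 47.4% of the EtOH level after scaling (log2 fold change -1.08, -1.11 to -1.05). This is the lowest value of the 6 and of the 13 mitochondrial mRNAs. It was above the 2-fold limit with no filter (-0.94) and on the deposited FPKM scale (-0.90).

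In complex IV, MT-CO1 had 376804 and 376885 counts in EtOH and 238865 and 238719 in HgCl2. It held the most counts of any transcript in every column of these tables, in which GAPDH and ACTB had at most 3. Its log2 fold change was -0.51 (-0.52 to -0.51). MT-CO2, whose product takes electrons from cytochrome c, had 86061 and 85988 counts in EtOH and 46983 and 47529 in HgCl2. Its log2 fold change was -0.72 (-0.74 to -0.70), and the 2 HgCl2 columns differed by 1.16% of their mean, the widest gap within a group among the 6 genes. MT-CO3 had 55026 and 55051 counts in EtOH and 35829 and 35604 in HgCl2, with a log2 fold change of -0.48 (-0.50 to -0.46). All columns of HgCl2 lay below those of EtOH for the 3 subunits of the oxidase, which together held 68.6% of their EtOH level.

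In complex V, MT-ATP6, which forms part of the proton path of the enzyme, had 71971 and 71997 counts in EtOH and 56017 and 55690 in HgCl2. Its log2 fold change was -0.22 (-0.24 to -0.21), which is -0.01 relative to the median of all tested transcripts and -0.43 relative to those with at least 200 counts. On the deposited FPKM scale it was -0.04. MT-ATP8, which encodes a small subunit of the membrane part of the synthase, had 16665 and 16693 counts in EtOH and 19414 and 19533 in HgCl2. It was the only one of the 6 with higher counts in HgCl2, with a log2 fold change of 0.37 (0.34 to 0.40), and it was higher under each of the 16 alternative settings (0.19 to 0.54). A log2 fold change as high as this or higher was found in 33.5% of all tested transcripts and in 34.9% of those with at least 200 counts.

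**Figure D2:**
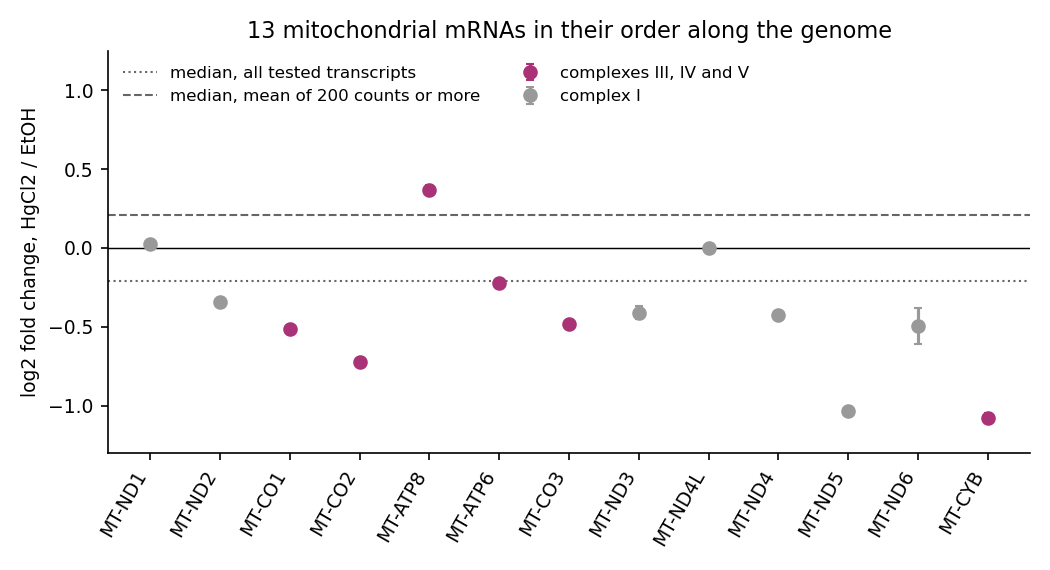
The log2 fold change between HgCl2 and EtOH (TMM scale, 95% counting intervals, 1 sample per group) for the 13 mitochondrial mRNAs in genome order, with the 6 of complexes III, IV and V in purple and the 7 of complex I in grey. MT-ATP8 at 0.37 lies above both medians drawn as lines (0.21 for well-counted and -0.21 for all tested transcripts), while MT-CYB at -1.08 is the lowest point.

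The scale between columns sets the size of these values. Over the settings tried, the fold change of MT-CO1 ran from -0.69 to -0.34, that of MT-CO2 from -0.89 to -0.54, that of MT-CO3 from -0.65 to -0.30, that of MT-ATP6 from -0.40 to -0.04 and that of MT-CYB from -1.25 to -0.90. None of the 6 changed sign under any of the 16. Those of the 16 that leave out a column or add a replicate block could hardly move a value, since the columns of a group are nearly alike. The median of all tested transcripts moved with the setting as well, from -0.83 with no filter to 0.01 with at least 10 counts in every column. Relative to that median MT-ATP8 alone of the 6 was above 0 as reported and under 15 of the 16 settings. With no filter 5 were above it, MT-CO1 by 0.45, MT-CO2 by 0.25, MT-CO3 by 0.49, MT-ATP6 by 0.74 and MT-ATP8 by 1.33, and only MT-CYB was below (-0.11). Relative to the median of the transcripts with at least 200 counts no gene turned, with MT-CYB between -1.29 and -1.27, MT-CO2 between -0.94 and -0.91, MT-CO1 between -0.75 and -0.71, MT-CO3 between -0.70 and -0.63, MT-ATP6 between -0.44 and -0.42 and MT-ATP8 between 0.15 and 0.17.

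**Figure D3:**
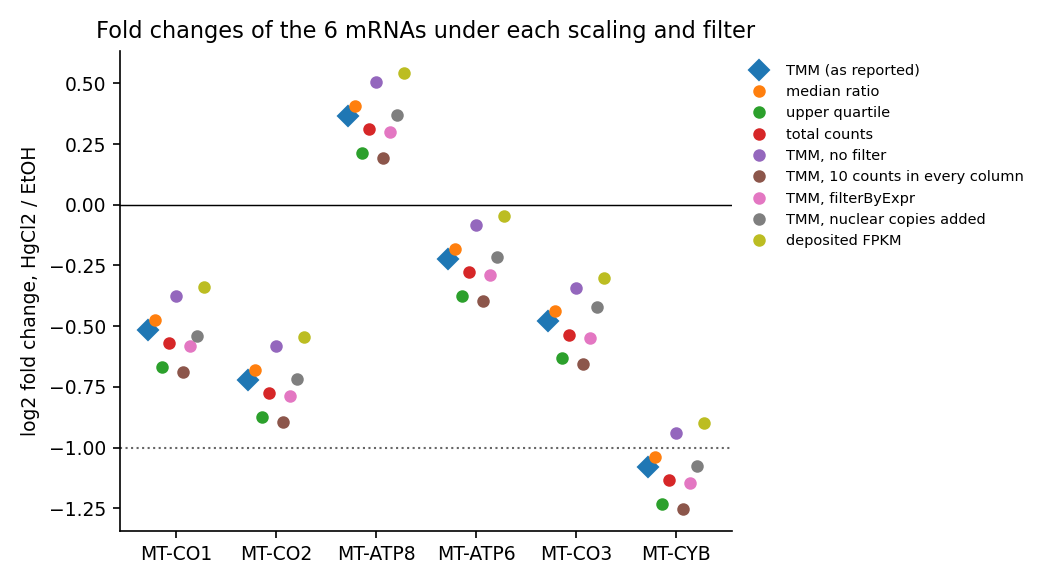
The log2 fold change of each mRNA on the TMM scale as reported (diamonds) and under 8 other scalings or filters (circles), with a dotted line at the 2-fold limit of -1. Apart from the setting with nuclear copies added the 6 genes shift together, their order is kept under all 8, and MT-CYB crosses the line with no filter (-0.94) and on the deposited FPKM scale (-0.90).

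Ratios of 2 mRNAs within a column do not depend on the scale between columns. For the genes on the shared RNA, the ratio of MT-ATP8 to MT-ATP6 counts was 0.232 in both EtOH columns, against 0.347 and 0.351 in HgCl2. The change was 0.59 on the log2 scale (counting interval 0.56 to 0.62), so that the ratio in HgCl2 was 1.5 times that in EtOH. This pair was singled out after its values were seen. The other genes that overlap on a shared RNA, MT-ND4L and MT-ND4 of complex I, also singled out afterwards, went the same way: the ratio of the short to the long gene was 0.153 and 0.152 in EtOH and 0.205 and 0.204 in HgCl2.

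The ratio of MT-CYB to MT-CO1 was 0.0857 and 0.0861 with EtOH and 0.0582 and 0.0581 with HgCl2, 0.677 times the EtOH value (0.663 to 0.691). Within complex IV, the ratio of MT-CO2 to MT-CO1 was 0.228 in both EtOH columns, against 0.197 and 0.199 in HgCl2, while that of MT-CO3 to MT-CO1 was 0.146 in both EtOH columns and 0.150 and 0.149 in HgCl2. The counting interval of the change left out 0 for all 15 pairs of the 6 genes. At the depth of these mRNAs such an interval is narrow, and it holds no variation between cultures, so this count sets no pair apart. The smallest change was that of MT-CO3 to MT-CO1, at 0.03 on the log2 scale (0.01 to 0.05), and the largest that of MT-ATP8 to MT-CYB, at 1.45 (1.40 to 1.49).

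**Figure D4:**
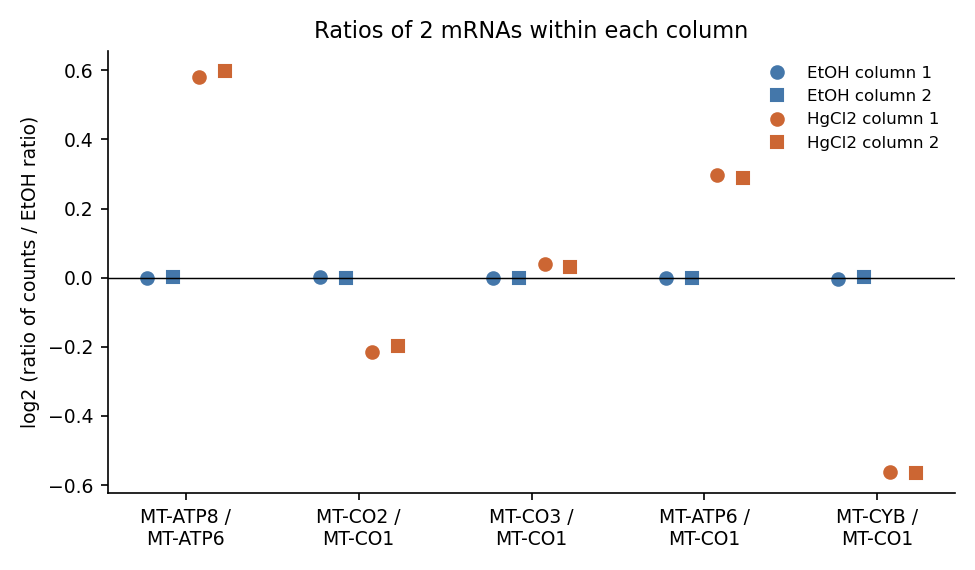
Ratios of the counts of 2 mRNAs in each column, as log2 relative to the EtOH ratio, so that the EtOH columns (blue) lie at 0. In the HgCl2 columns (orange) MT-ATP8/MT-ATP6 stands near 0.59, MT-CYB/MT-CO1 near -0.56 and MT-CO3/MT-CO1 near 0.03.

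As a set, the 6 mRNAs were not set apart from complex I. They held 62.3% of the counts of the 13 mitochondrial mRNAs in each EtOH column (interval 62.2% to 62.4%) and 61.7% and 61.8% with HgCl2 (61.6% to 61.9%). The 7 complex I mRNAs had a median log2 fold change of -0.41, from -1.03 for MT-ND5 to 0.02 for MT-ND1, beside -0.50 for the 6. Within the 6, the share of the 13 that fell to ATP synthase went from 8.64% in both EtOH columns to 11.3% in both HgCl2 columns, and that of cytochrome c oxidase from 50.5% in both to 48.3% and 48.4%. MT-CYB had 3.15% and 3.16% of the 13 in EtOH and 2.09% in both HgCl2 columns.

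Length moved with the fold change among these mRNAs. MT-ATP8, with 207 bases the shortest, was the highest, and across the 13 mRNAs Spearman's rho between length and log2 fold change was -0.60 (Pearson's r = -0.62). Of the other properties looked at, position along the genome had a rho of -0.48, the mean count on a log10 scale one of -0.41 and GC content one of -0.39. These values describe 13 genes that share 1 pair of samples and in part the same precursor RNA. Among transcripts outside the mitochondrial genome with at least 200 counts, the 31 shorter than 400 bases had a median log2 fold change of 0.19. The 169 from 400 to 1000 bases had one of 0.17 and the 256 from 1000 to 2000 bases one of 0.08. These steps are small beside the spread within the classes. The quartiles were -0.15 and 0.70 under 400 bases, -0.35 and 0.54 from 400 to 1000, and -0.22 and 0.48 from 1000 to 2000. The 2226 of 2000 bases or more had the highest median, 0.22, so the medians did not fall with length over all classes. None of the 13 mRNAs is that long. What part length has in the values of the 13 mRNAs was not tested. The length classes were chosen after the data were seen. How the reads over the 46 shared bases were assigned is not given in the sources used here, and the part of this overlap in the values of MT-ATP8 was not tested.

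**Figure D5:**
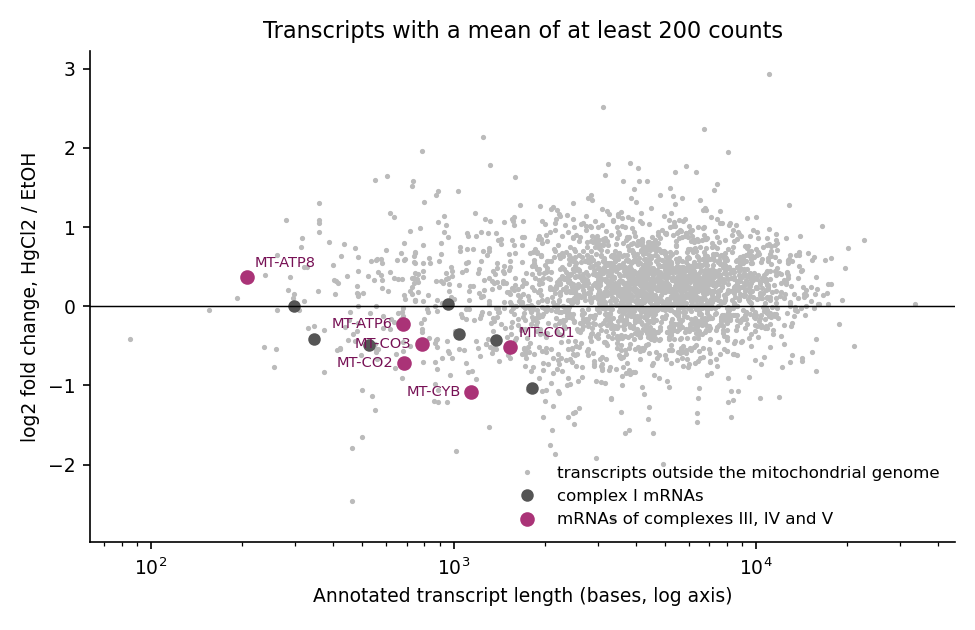
The log2 fold change between HgCl2 and EtOH against annotated transcript length (log axis) for transcripts whose mean reached 200 counts, with mRNAs of complexes III, IV and V in purple, complex I in dark grey and all other transcripts in light grey. MT-ATP8 (207 bases, 0.37) and MT-CYB (1141 bases, -1.08) mark the range of the 6 genes, whereas the light grey points shorter than 400 bases have a median of 0.19.

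Near-identical copies of these genes lie in the nuclear genome, and reads can be placed on either. The tables list 187 annotated copies, of which 8 had a mean of at least 10 counts in a group. MTCO1P12 on chromosome 1 (631074 to 632616 of GRCh38) had 84909 and 84726 counts in EtOH and 48871 and 48545 in HgCl2. It differs from MT-CO1 at 20 of 1542 aligned bases, 36.6% of the 75-base windows of MT-CO1 occur in it unchanged, and its log2 fold change was -0.66, beside -0.51 for MT-CO1. The copies of MT-CO1 together had 22.6% and 22.5% of the counts of MT-CO1 in EtOH and 20.5% and 20.4% in HgCl2.

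MTATP6P1 (4596 mean counts in EtOH and 3811 in HgCl2) and MTCO2P12 (1476 and 905.5) were lower in HgCl2, like the genes they copy. MTCO3P12 went another way than MT-CO3, with 3207 and 3242 counts in EtOH and 3670 and 3663 in HgCl2 (0.33, beside -0.48 for MT-CO3). MTATP8P1 had 16 and 18 counts in EtOH and 28 in each HgCl2 column, and no 75-base window of MT-ATP8 occurs in it unchanged. MTCO1P40, MTCO1P47 and MTCO2P2 had fewer than 200 mean counts in each group, and no copy of MT-CYB reached 10. With all copies added to their genes, MT-CO1 had a log2 fold change of -0.54, MT-CO3 of -0.42 and MT-ATP8 of 0.37.

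The other subunits of complexes III, IV and V are encoded in the nucleus, made in the cytosol and imported. Of 41 such genes, 31 had a tested transcript, and of their 64 tested transcripts 14 were at least 2-fold higher and 30 at least 2-fold lower in HgCl2 (21.9% and 46.9%, against 19.2% and 34.1% of all tested transcripts). Their median log2 fold change was -0.73, or -0.49 where a group at or under 3 counts is set to 3, which applied to 23 of the 64, and 5 more with both groups at or under 3 were left out of it. Their median count was 15.8, and among the 27 with no column under 10 counts 4 were higher and 5 lower, where 11.0% of all transcripts so filtered were higher and 12.6% lower.

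By complex, 0 of the 16 tested transcripts of complex III were at least 2-fold higher and 9 lower, of complex IV 7 of 21 were higher and 9 lower, and of complex V 7 of 27 were higher and 12 lower, beside the same 19.2% and 34.1% of all tested transcripts. In 6 of the 16, 8 of the 21 and 9 of the 27, 1 of the groups was at or under 3 counts. With no column under 10 counts, 0 of 7 in complex III were higher and 1 lower. In complex IV 1 of 8 were higher and 3 lower, and in complex V 3 of 12 were higher and 1 lower, beside 11.0% and 12.6% of all transcripts so filtered. Among those with a mean of at least 200 counts in a group, UQCRFS1, the iron-sulfur subunit that works beside cytochrome b, had a mean of 3767 counts with EtOH and 2052 with HgCl2 (log2 fold change -0.73, -0.81 to -0.65). UQCRC2, a core subunit, had 308.5 and 195.5 (-0.51, -0.78 to -0.25), and UQCRB, the ubiquinone-binding protein of the complex, had 295 and 67 (-1.99, -2.40 to -1.61). In complex V, ATP5MC3, which encodes the subunit of the rotating ring, had 919 and 981.5 (0.24, 0.11 to 0.37), and ATP5MG had 206 and 197 (0.08, -0.21 to 0.37). No nuclear transcript of complex IV had such counts.

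Assembly factors of complexes III, IV and V insert cofactors or chaperone subunits, whether encoded in the mitochondrion or in the nucleus. Of their 50 tested transcripts, 10 were at least 2-fold higher and 17 lower (20% and 34%, near the 19.2% and 34.1% of all tested transcripts), with a median log2 fold change of -0.21 (-0.26 with the limit of 3 counts). Among the 28 with no column under 10 counts, 3 were higher and 4 lower, where 11.0% of all transcripts so filtered were higher and 12.6% lower. ATPAF1, a chaperone of the catalytic part of ATP synthase, was the highest of those with at least 200 mean counts in a group, with 236 in EtOH and 485 in HgCl2 (1.18, 0.96 to 1.41). TMEM70, also of ATP synthase assembly, had 141 and 225 (0.82) and TMEM242 429 and 321.5 (-0.27).

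For complex IV, SCO1, which delivers copper to the MT-CO2 product, had 329 and 384 mean counts (0.37), COA5 362.5 and 220.5 (-0.57), COA7 675.5 and 482.5 (-0.34) and COA1, by a transcript of the nonsense-mediated decay class, 268 and 220.5 (-0.14). The 2 such transcripts of COX15, an enzyme of heme a synthesis, differed in direction, with 211 and 256 (0.42) for ENST00000016171 and 865.5 and 656.5 (-0.26) for ENST00000370483. LYRM7, which helps to place the iron-sulfur subunit in complex III, had 520.5 and 695 (0.56). The assembly factors of these counts thus lay on both sides of 0, without a shared direction.

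The transcripts outside the mitochondrial genome most like the 6 genes were taken as the 5 nearest to their median log2 fold change among 834 whose mean reached 1000 counts. They comprised DCAF7 (-0.49), HACD3 (-0.49) and the processed pseudogenes PSMC1P1 (-0.51), BCLAF1P2 (-0.52) and RPL4P4 (-0.48), at most 0.022 from that median. The likeness rests on 2 groups and thus on 1 difference.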

How the data were processed

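Poly-A RNA of H1299 cells was sequenced by the authors from EtOH and HgCl2 cultures, with 2 labelled columns in each group. The authors deposited raw counts per transcript, from reads trimmed with Trim Galore, aligned with STAR 2.5.4b to GRCh38 and counted with Rsubread; how reads on several features were counted is not given in the sources used here. The authors also deposited FPKM values made from these counts with DESeq2 1.26.0, scaled by median ratios; 1 count of a transcript stands for 1.25 times as much FPKM in HgCl2 as in EtOH. Columns were assigned by their names, which carry the group and replicate number of the sample titles. The members and the gene lists were chosen with earlier results of these data known.

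Fold changes were fitted with edgeR 4.0.16 (TMM, glmQLFit, R 4.3.3) over the 17547 transcripts whose FPKM averaged more than 1 in a group, and checked on simulated data. Since columns of a group differed by less than sampling noise, groups were counted as 1 sample each and no test was made, in place of the adjusted p planned for 2 samples per group. Intervals are 95% Clopper-Pearson from mean counts, or from the variance of log counts for ratios. Alternatives used other normalizations and filters, DESeq2 1.42.0, limma 3.58.1 on log2(FPKM + 1) and log2(FPKM + 0.1), a replicate block and the removal of each column. Gene names and positions come from GENCODE 44 on GRCh38, with 223558 of 227368 identifiers found, and sequences from the same genome. Genes named are the 6 mRNAs, the complex I extremes, nuclear subunits and assembly factors with a mean of at least 200 counts in a group, copies with at least 10, and the 5 transcripts of nearest fold change. Outside this rule, MT-ND4L, MT-ND4 and the mitochondrial tRNA and rRNA genes were named after their values were seen, and the markers of the line from a list.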

Additional observations from a re-analysis of the deposited data

How the results depend on the processing

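The log2 fold change of the summed 6 mRNAs, -0.49 as reported, kept its direction under every setting tried: -0.45 with median ratio size factors, -0.65 with upper quartile scaling, -0.55 with total counts, -0.35 with no filter, -0.67 with 10 counts or more in each column, -0.56 with filterByExpr and -0.50 with nuclear copies added. The sum of the deposited FPKM values gave -0.20 with either pseudocount. That sum is per length and gives short mRNAs such as MT-ATP8 more weight, so it is another quantity than the summed counts. Leaving out each column in turn gave -0.49 in all 4 cases. The number of mRNAs at least 2-fold lower went from 1 to 0 with no filter and on the FPKM scale. The change of the MT-CO2 to MT-CO1 ratio, -0.21, was -0.18 with nuclear copies added, while that of MT-CYB to MT-CO1 ran from -0.57 to -0.56 without 1 column and that of MT-ATP8 to MT-ATP6 from 0.58 to 0.60. The settings for MT-CO2 to MT-CO1 and MT-ATP8 to MT-ATP6 were chosen after the data were seen. From FPKM, the 6 mRNAs held 63.2% of the 13 in EtOH and 62.6% in HgCl2. The level per length of MT-ATP8 relative to MT-ATP6 was 0.762 in EtOH and 1.15 in HgCl2. It was 0.912 and 1.37 with the same whole-gene counts divided by the bases that no other gene covers. This swap of length leaves the change between the groups as it was, and reads over the shared bases were not taken out. Where no column was under 10 counts, transcripts at least 2-fold higher and lower numbered 4 and 5 of 27 for nuclear subunits. For assembly factors they were 3 and 4 of 28, where 11.0% and 12.6% of all transcripts so filtered were higher and lower. With counts summed per gene, 3 and 11 of 31 nuclear subunit genes were higher and lower. The share of all genes at these limits was not computed, so these 2 counts have no background. Fewer transcripts or genes enter these counts.

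Same-numbered columns did not deviate together (correlation 0.01 over 6763 transcripts), and with the replicate block the summed fold change was again -0.49. The depth of the 6 mRNAs keeps counting error small, but a group of 1 sample gives no measure of the variation between cultures.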

Other observations

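The genes next to these mRNAs on the mitochondrial genome were singled out after their values were seen. MT-TS1 and MT-TD, the tRNA genes between MT-CO1 and MT-CO2, had 27 and 21 and 65 and 60 counts in EtOH, and 0 in both columns and 11 and 9 in HgCl2. Next to MT-CYB, MT-TE had 14 and 21 counts in EtOH and 4 in each HgCl2 column, and MT-TP, which follows MT-TT, 43 and 34 in EtOH and 5 in each HgCl2 column. MT-TS1, MT-TE and MT-TP lie on the other strand than the 6 mRNAs. MT-TT, which adjoins the end of MT-CYB, had 360 and 348 counts in EtOH and 395 and 389 in HgCl2. Before MT-CO1, MT-TC and MT-TY had at most 2 counts in any column. MT-TK, between MT-CO2 and MT-ATP8, had 10 in each EtOH column and 9 and 3 in HgCl2, and MT-TG, after MT-CO3, had at most 4 in any column.

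The summed counts of the 2 ribosomal RNAs of the mitochondrion had a log2 fold change of -0.19, beside -0.49 for the 6 mRNAs. Most of that sum is MT-RNR2, and the 2 genes lay on either side of the value of the 6 mRNAs. MT-RNR1 went from 15424 and 15483 counts in EtOH to 8877 and 8809 in HgCl2 (log2 fold change -0.66). MT-RNR2 went from 209360 and 209363 to 169945 and 169777 (-0.16).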
